A study of Mus musculus with 22 samples.

Results

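The bulk RNA of LSK cells was compared between Mettl3-deficient and control fetal livers over all genes of the table, with attention to expression programs other than the interferon response and the markers of blood lineages. The 6 libraries, 3 KO and 3 WT, are 6 of 22 samples of the series. KO embryos were Vav-Cre Mettl3fl/fl, and WT embryos were Mettl3fl/fl without Vav-Cre, so both groups carried the floxed alleles. The Vav promoter drives Cre in blood cells, so the cells of the liver outside the blood keep the gene. All livers were taken at E14.5, in mid-gestation. LSK cells are the sorted fraction that lacks lineage markers and carries Sca-1 and c-Kit, and polyadenylated RNA was sequenced. The labels name a mouse for each library and call the libraries biological replicates. Of 52459 genes in the table, 14405 had enough counts in these 6 libraries to be tested.

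Mettl3 encodes the catalytic subunit of the complex that places N6-methyladenosine (m6A) on adenosines of messenger RNA, mostly near stop codons and in long internal exons. The mark is read by proteins that change how long an mRNA lasts, how it is spliced and how it is translated. In fetal liver, the LSK fraction holds the stem cells and multipotent progenitors from which all blood lineages arise.

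Mettl3 had 4.13, 6.31 and 5.53 CPM (counts scaled to a common library size by TMM) in the KO libraries, against 43.0, 43.0 and 33.2 CPM in the WT libraries, and its log2 fold change was -2.91 with an SE of 0.17 (edgeR quasi-likelihood fit, Benjamini-Hochberg adjusted p 1.6e-05, as for all adjusted p values of bulk RNA). The groups did not overlap, and the remaining KO level was above 0 in every library. Libraries held 27732838 to 40641081 counts in KO and 20088100 to 35924983 in WT. Kit, which encodes c-Kit, was at 347 to 372 CPM in KO and 490 to 569 CPM in WT. Ly6a, which encodes Sca-1, was at 12.7 to 24.4 CPM in KO and 4.93 to 7.67 CPM in WT. Of 12 lineage markers that the sort removes, Ly6g was at 0 in all 6 libraries, and the summed level was 333 to 359 CPM in KO and 356 to 454 CPM in WT. Most of that sum was Ptprc, which all white blood cells express, at 300 to 325 CPM in KO and 287 to 365 CPM in WT. These Ptprc values and all summed marker levels, here and below, were scaled by library size alone, without TMM. With TMM, Ptprc was at 307 to 337 CPM in KO and 286 to 347 CPM in WT. The other 11 summed to 33.0 to 33.4 CPM in KO and 68.3 to 105 CPM in WT, and 8 of the 9 tested lineage markers were lower, all 8 at least 2-fold (median log2 fold change -1.25). Over all genes tested 22.6% were lower, and 8.27% were lower by at least 2-fold. The 38 granulocyte markers summed to 4533 to 4690 CPM in KO and 2204 to 2281 CPM in WT, and the 39 lymphoid markers to 1480 to 1516 CPM in KO and 2398 to 2765 CPM in WT. Dendritic cell markers (25 genes) summed to 823 to 847 CPM in KO and 1265 to 1526 CPM in WT, and erythroid markers (34 genes) to 1527 to 2043 CPM in KO and 2248 to 3030 CPM in WT. The 42 stem and multipotent progenitor genes summed to 3255 to 3399 CPM in KO and 3581 to 4016 CPM in WT. Of 39 tested 23 were lower and 5 higher (median -0.38), against 22.6% lower and 21.6% higher of all genes. Hepatocyte markers (22 genes) summed to 109 to 156 CPM in KO and 141 to 304 CPM in WT. The embryos' sexes were not balanced. KO library 1 had no count of the Y-linked genes Uty, Kdm5d and Eif2s3y, WT library 3 had 0.149 CPM of the X-inactivation transcript Xist, and the other 4 libraries held both Xist and Y-linked transcripts, although their labels each name a single mouse. In bulk RNA, fewer cells of a type and less RNA per cell cannot be told apart.

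At an adjusted p under 0.05, 3114 genes were higher in KO (21.6% of those tested) and 3253 were lower (22.6%), 44.2% in all. Among changes of at least 2-fold the balance tipped. There, 405 genes were higher (2.81%) and 1191 were lower (8.27%). The lower genes of that size were sparse, with a median level of 1.44 CPM, against 8.86 CPM for the higher ones. All 3 KO libraries lay above all 3 WT libraries for 26.8% of genes and below them for 27.8%. Leaving out a library moved the number of lower genes most: 2040 were called without KO library 3. Scaling by library size alone moved the split to 2463 higher and 4143 lower, with a median log2 fold change of -0.108 over all genes in place of -0.0196. With autosomal genes alone, 3043 of 13905 were higher and 3120 lower.

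Genes were then read as 51 lists, in 7 themes, that cover metabolism, protein handling, RNA handling, chromatin, signalling, cell shape, and fate and stress. They held 1543 tested genes, 8 of them in more than 1 list. The lists carry no test of their own, and their counts are to be read against 21.6% higher and 22.6% lower over all genes. The highest medians were those of mitochondrial protein import (0.57), endoplasmic reticulum chaperones (0.39), tRNA and rRNA modification (0.33) and the translocon and N-glycosylation (0.32). Glycolysis (0.30) and pyrimidine synthesis (0.25) came next. The lowest were of integrins and focal adhesion, of Wnt and Notch signalling and of MAP kinase feedback. MAP kinase feedback had 8 lower and 4 higher of 26. Its lower count was at fewest 4 with a library left out and 0 among the other alternatives. Its member Dusp2 had 93.2, 48.1 and 51.7 CPM in WT libraries 1, 2 and 3.

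**Figure D1:**
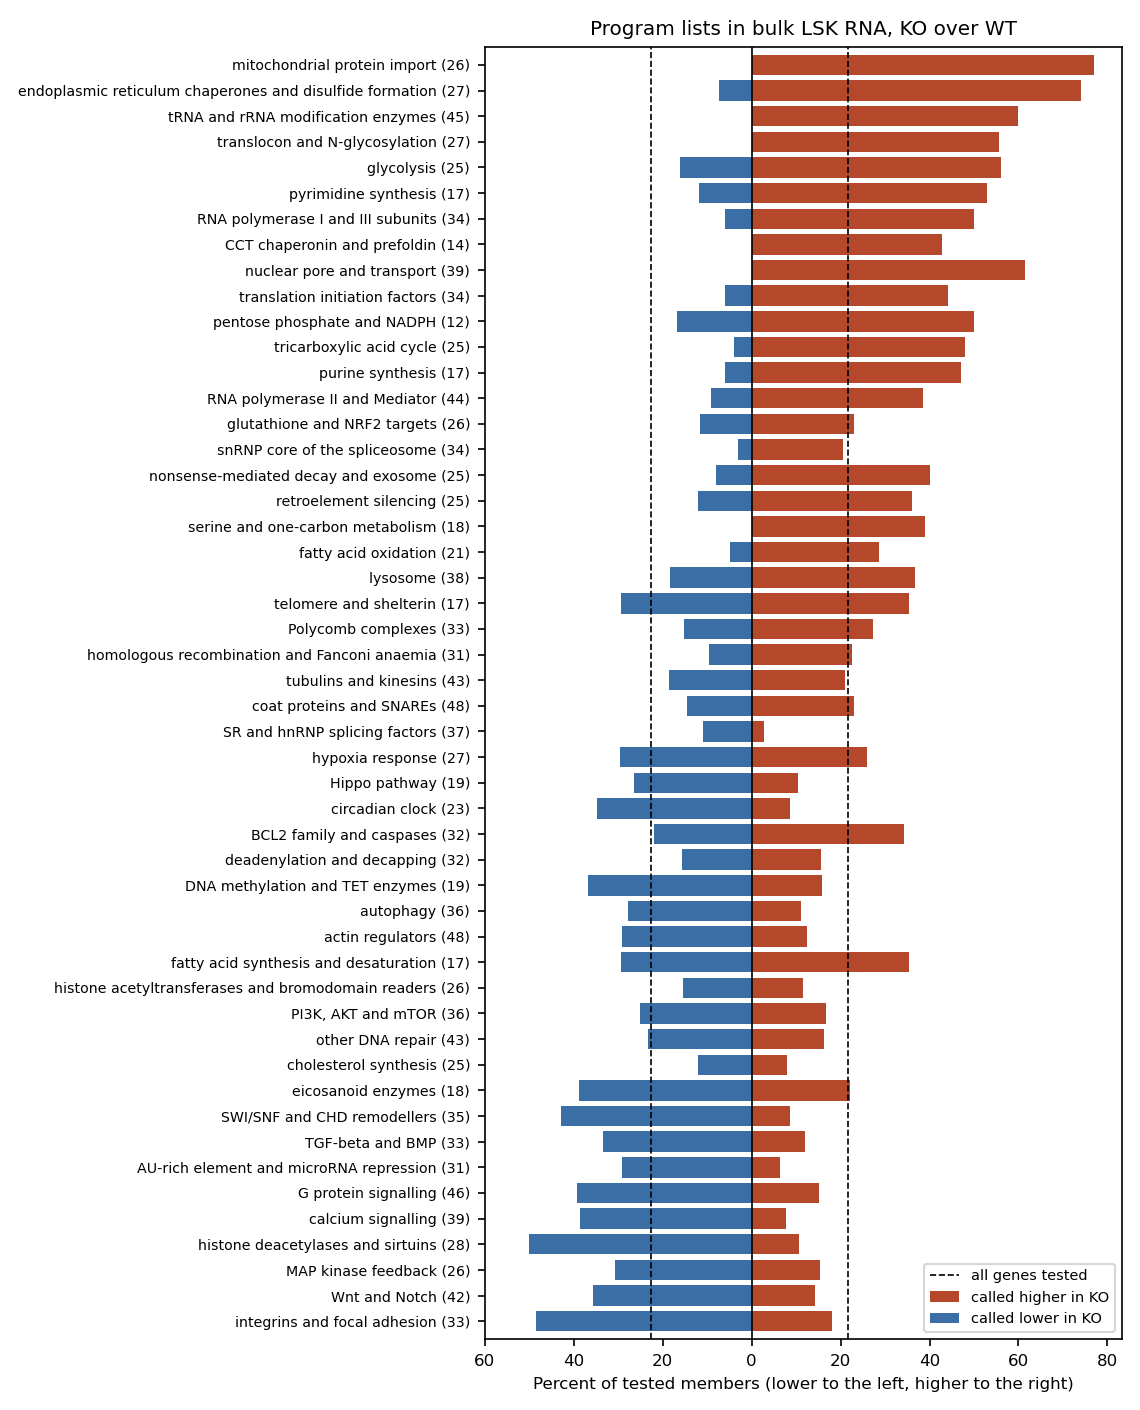
For the program lists (tested members in parentheses), the percent of members called higher (red, to the right) and lower (blue, to the left) in KO at an adjusted p under 0.05, ordered by the list's median log2 fold change. Dashed lines mark the shares of all tested genes, 21.6% higher and 22.6% lower. Mitochondrial protein import is at the top with 20 of 26 higher, and integrins and focal adhesion at the bottom with 16 of 33 lower.

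Chaperones of the endoplasmic reticulum (ER) rose broadly. These proteins fold, oxidize and quality-check proteins on their way to the surface or out of the cell, and in other settings many are induced together by the unfolded protein response. Of 27 tested members, 20 were higher and 2 lower, and the median log2 fold change was 0.39, against -0.02 over all genes. Hspa5, the HSP70 of the ER lumen (BiP, ENSMUSG00000026864, chromosome 2), had 1457, 1881 and 1750 CPM in KO, against 857, 713 and 717 CPM in WT, which gave a log2 ratio of 1.15 with an SE of 0.11 and an adjusted p of 9.4e-05. Every KO library was above every WT library, and KO library 1 was the lowest of the KO group. Manf, a secreted partner of Hspa5, had 171, 216 and 201 CPM in KO, against 95.8, 101 and 106 CPM in WT. Calr, the lectin chaperone calreticulin, had 1640, 1962 and 1932 CPM in KO, against 1025, 981 and 1028 CPM in WT. Pdia4, a disulfide isomerase, averaged 358 ± 33 CPM in KO and 199 ± 3.4 CPM in WT (SD, n = 3 each). These 3 rose by 0.96, 0.87 and 0.85 on the log2 scale (adjusted p 8.3e-05, 9.4e-05 and 7.8e-05), with no overlap between groups. Atf6 and Ern1, which encode sensors of the response, did not pass the test at the RNA level, and their activity was not measured here. Atf6 had a log2 fold change of -0.15 (adjusted p 0.2) and Ern1 of 0.14 (adjusted p 0.24), while Xbp1, the transcription factor activated by Ern1, rose by 0.37. The 2 lower members both serve ER-associated degradation. Syvn1, a ubiquitin ligase, averaged 34.9 ± 2.1 CPM in KO and 42.8 ± 0.80 CPM in WT (SD, n = 3 each). Derl3 was barely expressed, at 0.151 to 0.219 CPM in KO and 0.347 to 0.66 CPM in WT.

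The ER stress response element, CCAAT followed after 9 bases of any kind by CCACG, is the promoter motif through which ATF6 and the CCAAT-binding factor NF-Y act on ER chaperone genes. It contains the CCAAT box itself. The 250 bases before the RefSeq start (GRCm38.p6) were searched on both strands. The motif was in 9 of the 21 ER list members that have a promoter in the table, and in 18 of 10322 tested genes with one (0.174%). Of the 9 members with the motif 7 were higher and 2 lower in KO (median log2 fold change 0.41). Of the 12 members without it 9 were higher and none lower (median 0.36). The other 9 tested genes with the motif, outside the list, had 0 higher and 3 lower calls. These 5 stretches are shown because they hold the same motif before genes that went different ways, each 5′ to 3′ on the gene's strand and ending at the base before the start, with the motif in capitals: those of Hspa5, Calr and Hsp90b1 (a chaperone of the HSP90 family, higher by 0.53), and those of both members that fell.
Hspa5, chr2:34771840-34772089, plus strand: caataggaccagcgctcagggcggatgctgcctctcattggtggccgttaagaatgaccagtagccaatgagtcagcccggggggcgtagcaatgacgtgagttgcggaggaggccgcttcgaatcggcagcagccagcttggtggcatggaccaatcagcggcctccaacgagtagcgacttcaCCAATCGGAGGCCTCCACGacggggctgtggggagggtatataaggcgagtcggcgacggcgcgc
Calr, chr8:84846932-84847181, minus strand: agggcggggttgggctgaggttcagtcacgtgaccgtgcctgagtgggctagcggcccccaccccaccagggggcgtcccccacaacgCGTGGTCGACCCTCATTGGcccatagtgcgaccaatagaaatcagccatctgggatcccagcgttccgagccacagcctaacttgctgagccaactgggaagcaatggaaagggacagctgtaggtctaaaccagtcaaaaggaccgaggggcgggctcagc
Hsp90b1, chr10:86705445-86705694, minus strand: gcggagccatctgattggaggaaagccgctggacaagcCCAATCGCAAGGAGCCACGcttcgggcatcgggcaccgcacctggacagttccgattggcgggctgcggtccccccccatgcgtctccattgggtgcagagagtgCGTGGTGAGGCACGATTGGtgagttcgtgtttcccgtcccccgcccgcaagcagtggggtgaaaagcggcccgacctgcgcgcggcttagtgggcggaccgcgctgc
Syvn1, chr19:6046326-6046575, plus strand: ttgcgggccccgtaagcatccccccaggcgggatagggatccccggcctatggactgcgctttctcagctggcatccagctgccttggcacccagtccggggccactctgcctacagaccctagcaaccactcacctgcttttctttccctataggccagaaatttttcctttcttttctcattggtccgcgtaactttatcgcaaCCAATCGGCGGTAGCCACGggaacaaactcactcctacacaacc
Derl3, chr10:75893148-75893397, plus strand: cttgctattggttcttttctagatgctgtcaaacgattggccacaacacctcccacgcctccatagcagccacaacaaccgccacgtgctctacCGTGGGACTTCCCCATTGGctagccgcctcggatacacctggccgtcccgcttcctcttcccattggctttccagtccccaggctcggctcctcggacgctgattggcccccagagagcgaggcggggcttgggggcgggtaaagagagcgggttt
In Hspa5 the motif covered bases -65 to -47 before the start. Hsp90b1 held it in both orientations, at -212 to -194 and -107 to -89. In Syvn1 and Derl3, genes that fell, it covered -44 to -26 and -156 to -138. All 5 stretches were found by searching for the fixed letters of the motif, so they share these letters by selection.

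Genes for bringing proteins into mitochondria rose as well. Nearly all mitochondrial proteins are made in the cytosol and pass through the TOM complex of the outer and the TIM complexes of the inner membrane. Of 26 tested members 20 were higher and none lower, with a median log2 fold change of 0.57, the highest of the 51 lists. Timm17a, a core subunit of the inner-membrane channel (ENSMUSG00000062580, chromosome 1), had 117, 144 and 131 CPM in KO, against 53.6, 50.0 and 57.6 CPM in WT (log2 fold change 1.28, SE 0.09, adjusted p 3.0e-05). Grpel1, the nucleotide exchange factor of the import motor, had 132, 174 and 164 CPM in KO, against 69.4, 75.7 and 84.5 CPM in WT. Timm8a1 and Timm10, small chaperones of the space between the membranes, rose by 0.96 and 0.85. Their groups did not overlap either. Hspd1, the matrix chaperonin HSP60, was among the genes outside the marker lists with the largest difference in CPM. It had 1714, 1766 and 1718 CPM in KO and 984, 919 and 994 CPM in WT. Timm17b, the paralog of Timm17a, had a log2 fold change of -0.21 (adjusted p 0.23). Among 109 gene families grouped by the start of their symbols, the Timm family (14 tested, 11 higher, none lower, median 0.57) came next after the interferon-induced Ifi family, and was followed by Mrps, the small-subunit proteins of the mitochondrial ribosome (22 of 29 higher, none lower), and by Snhg, the host genes of small nucleolar RNAs (6 of 12 higher, 1 lower, median 0.44). The 4 families with the lowest medians were Adam, a group of membrane proteases (4 higher and 5 lower of 12, median -0.91), Sema, the semaphorins (1 and 7 of 15, -0.91), Col, the collagens (0 and 11 of 19, -0.85), and Cyp, mostly cytochrome P450 enzymes (0 and 8 of 19, -0.64).

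**Figure D2:**
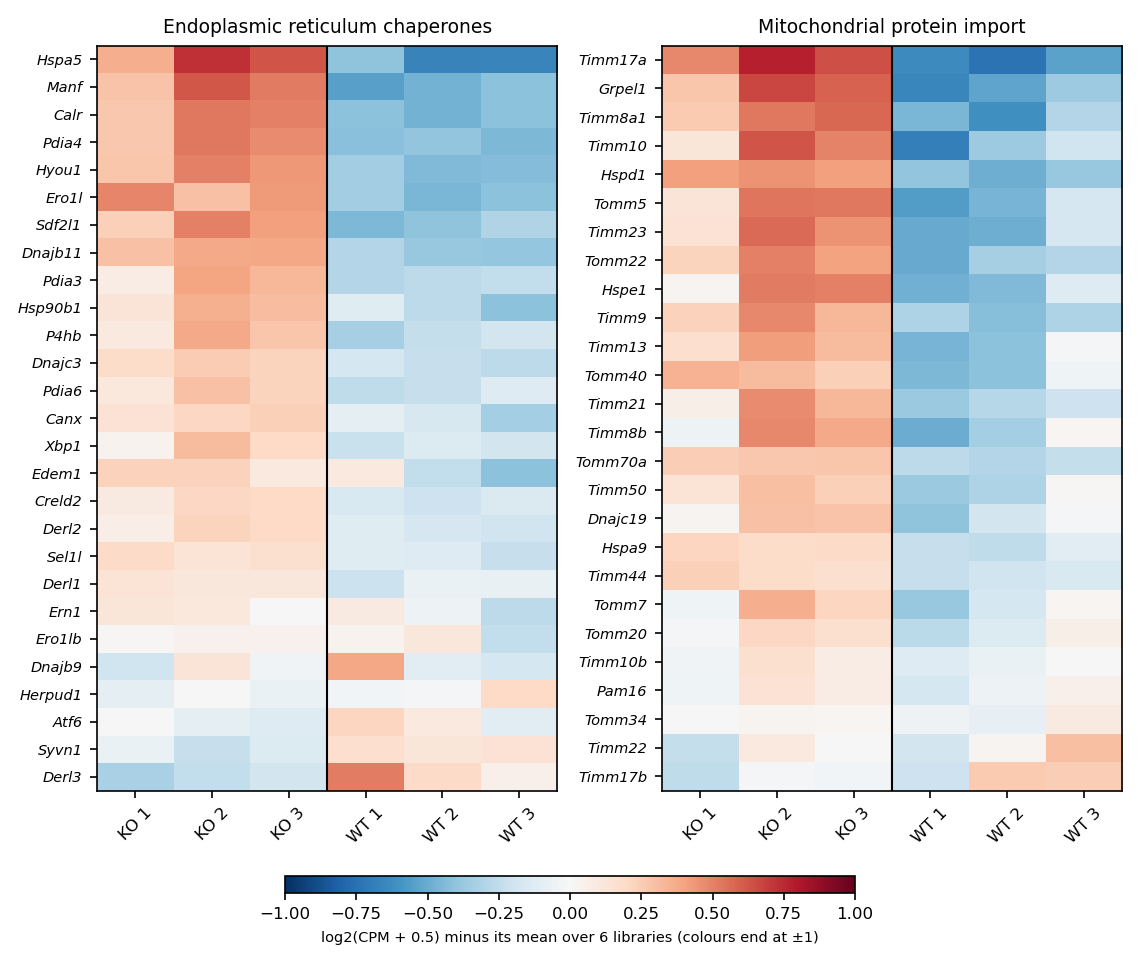
Every tested member of the ER chaperone list (left) and the mitochondrial import list (right), one row each, ordered by log2 fold change. Colour gives log2(CPM + 0.5) minus the row's mean over the 6 libraries, with KO 1 to 3 left of WT 1 to 3. KO library 1 is the palest of the KO columns for many genes, for example Hspa5 at 1457 CPM against 1881 and 1750 CPM in the other KO libraries.

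The machinery that makes and modifies stable RNAs moved in the same direction. RNA polymerase I makes the large ribosomal RNAs, and RNA polymerase III makes tRNAs and the 5S RNA. Of 34 tested subunits and factors 17 were higher and 2 lower (median 0.24). Polr1b, the second-largest polymerase I subunit, had 360, 366 and 352 CPM in KO, against 163, 160 and 177 CPM in WT (log2 fold change 1.11, SE 0.07, adjusted p 1.6e-05). Brf2, a TFIIB-like factor for a class of polymerase III genes, averaged 39.1 ± 2.0 CPM in KO and 18.2 ± 2.0 CPM in WT (SD, n = 3 each). Both lower members act on polymerase III: its repressor Maf1 fell by 0.41 and Polr3gl, an alternative form of a subunit, fell by 0.42. Enzymes that modify tRNA and rRNA had 27 higher and no lower of 45 (median 0.33). Trmt5, a tRNA methyltransferase, had 56.0, 63.0 and 62.8 CPM in KO, against 27.8, 29.1 and 28.4 CPM in WT, and the pseudouridine synthase Pus1 had 147, 144 and 150 CPM in KO, against 72.7, 74.8 and 82.8 CPM in WT. Both groups of 3 were tight, and the log2 fold changes were 1.09 and 0.94 (adjusted p 2.9e-05 and 3.2e-05).

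Nuclear pore proteins and transport receptors had 24 higher and no lower of 39, with small changes (median 0.22). The importin Kpna6 rose by 0.78 and Rcc1, which charges the transport GTPase Ran, by 0.60. Scaling by library size alone gave 14 higher members. Of 27 genes for the ER translocon and N-glycosylation 15 were higher and none lower (median 0.32), led by the signal recognition particle gene Srp19 at 0.73. Of 34 translation initiation factors 15 were higher and 2 lower (median 0.21). Eif1a, which scans for the start codon within the small ribosomal subunit, had 323, 370 and 367 CPM in KO, against 151, 144 and 161 CPM in WT (log2 fold change 1.22, adjusted p 2.5e-05); it has a close copy on the X chromosome, and how the authors counted shared reads is not stated. The cap-binding Eif4e rose by 0.50. The CCT chaperonin and prefoldin, which fold actin and tubulin, had 6 higher and no lower of 14, and 10 higher without KO library 1 or without WT library 3.

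Taken as a union of these 8 lists, a grouping made after their counts were seen, 144 of 246 genes were higher (58.5%) and 6 lower (2.44%). Their median level was 112 CPM. Well-expressed genes rose more often in general: of all genes between 64 and 256 CPM, 33.8% were higher and 15.2% lower. Granulocyte marker levels were higher beside these 8 lists, and lymphoid, dendritic and erythroid levels lower, as given above. The part of these markers was not tested. Other RNA machinery moved less. Splicing regulators of the SR and hnRNP families had 1 higher and 4 lower of 37, shares below those of all genes, and the higher one was Hnrnpr (0.30); library size alone gave 8 lower. RNA polymerase II and Mediator had 17 higher and 4 lower of 44: Med18 rose by 1.42 and Med21 by 1.19, while Polr2a, the largest subunit, fell by 0.54. Of 25 genes of nonsense-mediated decay and the exosome 10 were higher and 2 lower (6 higher with library size alone), and Smg8, which restrains the decay kinase, had 96.7, 108.5 and 106 CPM in KO, against 39.9, 42.4 and 47.3 CPM in WT.

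**Figure D3:**
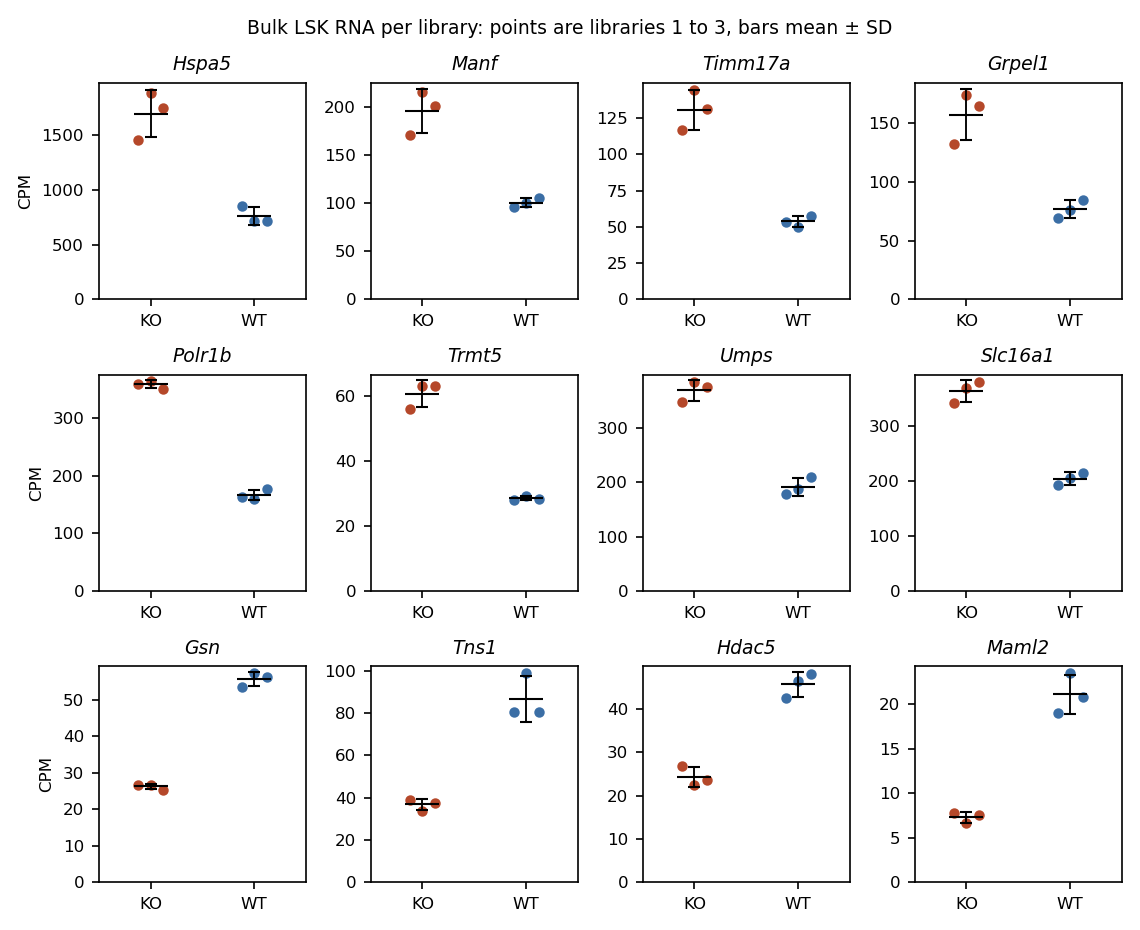
CPM per library for 12 named list members, KO (red) left of WT (blue); points are libraries 1 to 3 and bars are mean ± SD, n = 3. In all 12 panels the groups are apart, with Hspa5, Manf, Timm17a, Grpel1, Polr1b, Trmt5, Umps and Slc16a1 higher and Gsn, Tns1, Hdac5 and Maml2 lower in KO.

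Central metabolism was higher in parts. Glycolysis turns glucose into pyruvate and lactate, and 14 of its 25 listed genes were higher and 4 lower (median 0.30). The phosphofructokinase Pfkp had 86.4, 85.6 and 81.2 CPM in KO, against 42.6, 43.2 and 39.6 CPM in WT (log2 fold change 1.01, SE 0.07, adjusted p 2.8e-05). The lactate transporters Slc16a1 and Slc16a3 rose by 0.83 and 0.96. Isozymes of a step went apart, in pairs picked after their values were seen. Pfkm fell by 0.34 where Pfkp rose. Ldhb, at 8.95 to 12.2 CPM in KO and 14.6 to 23.3 CPM in WT, fell by 0.81 where Ldha rose by 0.45. The pyruvate dehydrogenase kinase Pdk2, which holds pyruvate out of the mitochondrial cycle, had 4.97, 4.22 and 4.37 CPM in KO, against 9.08, 14.7 and 13.9 CPM in WT (log2 fold change -1.47, SE 0.19, adjusted p 0.00036). Eno1 rose by 0.58 in bulk RNA, but its level was 219 and 341.5 CPM in the KO single-cell sums, against 282.1 and 278.5 CPM in the WT sums.

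Of 17 genes of pyrimidine synthesis 9 were higher and 2 lower (median 0.25). Umps, the enzyme of the last steps to UMP, had 348, 385 and 375 CPM in KO, against 178, 188 and 211 CPM in WT (log2 fold change 0.94, SE 0.08, adjusted p 5.5e-05). Cad, which opens the pathway, had 608, 518 and 522 CPM in KO and 502, 508 and 568 CPM in WT. Its groups overlapped (adjusted p 0.58). The tricarboxylic acid cycle had 12 higher and 1 lower of 25, purine synthesis 8 and 1 of 17, and serine and one-carbon metabolism 7 and none of 18. The pentose phosphate list, the source of NADPH, had 6 and 2 of 12. Cholesterol synthesis had 2 higher and 3 lower of 25 (1 lower without KO library 2 or 3, and 10 lower with library size alone), and its transcriptional activator Srebf2 averaged 185 ± 5.0 CPM in KO and 287 ± 35 CPM in WT (SD, n = 3 each; log2 fold change -0.64). The desaturases Scd1 and Fads2 had log2 fold changes of -1.24 and -0.53 (adjusted p 0.0016 and 0.00092).

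Of the genes of cell shape, those of integrins and focal adhesions were lower more often than higher. Integrins bind the matrix and other cells, and focal adhesion proteins join them to actin. Of 33 tested members 16 were lower and 6 higher (median -0.25). Tns1, a tensin that links integrins to actin, had 39.0, 33.8 and 37.7 CPM in KO, against 80.3, 98.9 and 80.6 CPM in WT (log2 fold change -1.23, SE 0.10, adjusted p 4.8e-05). Zyx, a focal adhesion adaptor, had 158, 142 and 145 CPM in KO, against 236.5, 265 and 297 CPM in WT. The lymphoid integrin subunit gene Itgb7 averaged 20.9 ± 1.3 CPM in KO and 42.8 ± 4.8 CPM in WT (SD, n = 3 each). Opposite to these, Itgb5 rose by 1.51 and Itga6, an integrin subunit that binds laminin, by 0.80. The actin-severing gelsolin gene Gsn had 26.7, 26.7 and 25.4 CPM in KO, against 53.6, 57.2 and 56.3 CPM in WT. Its list, the regulators of actin, had 14 lower and 6 higher of 48 (median -0.07), with 6 lower without KO library 3, and tubulins and kinesins had 8 lower and 9 higher of 43 (median 0.04). Endothelial markers (17 genes) summed to 310 to 341 CPM in KO and 431 to 532 CPM in WT, and stromal markers (10 genes) to 24.5 to 30.1 CPM in KO and 41.8 to 54.0 CPM in WT; their part in these lists was not tested.

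Among chromatin genes, the deacetylase and remodeller lists held more lower than higher members, and the Polycomb list, of complexes that keep genes silent, held 5 lower and 9 higher of 33 (median 0.06). Of 28 histone deacetylases, sirtuins and their partners 14 were lower and 3 higher (median -0.20). The lower count was 5 without KO library 2 or 3, 8 without WT library 2 and 9 without WT library 3. By the naming rule the largest falls were those of Hdac9, Hdac5 and Hdac7, which encode class IIa deacetylases that shuttle between nucleus and cytosol. Hdac9 had 7.01, 5.19 and 5.31 CPM in KO, against 22.5, 19.6 and 13.3 CPM in WT, Hdac5 had 26.9, 22.5 and 23.6 CPM in KO, against 42.6, 46.5 and 48.2 CPM in WT, and Hdac7 averaged 68.9 ± 8.2 CPM in KO and 109 ± 1.7 CPM in WT (SD, n = 3 each). Their log2 fold changes were -1.66, -0.91 and -0.66 (adjusted p 0.00027, 0.00013 and 0.00043), and the groups did not overlap for any of the 3. The ubiquitous class I enzyme Hdac1 had -0.19 (adjusted p 0.055), and Sirt1 rose by 0.50. Of 35 SWI/SNF and CHD remodellers 15 were lower and 3 higher, with 8 lower without KO library 2 or 3 and 9 without WT library 2. Smarca2, an ATPase of the SWI/SNF complex, averaged 31.8 ± 0.44 CPM in KO and 60.8 ± 4.1 CPM in WT (SD, n = 3 each), and its alternative Smarca4 fell by 0.35. Chd7 rose by 0.85. The summed markers of lymphoid, dendritic and erythroid cells were lower beside these lists, and their part was not tested. Among genes that silence retroelements 9 of 25 were higher and 3 lower; Daxx, which deposits the histone variant H3.3 in silent chromatin, had 114, 115 and 114 CPM in KO, against 64.5, 61.0 and 62.4 CPM in WT.

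Of 42 genes of the Wnt and Notch pathways 15 were lower and 6 higher (median -0.23). Notch receptors, cut by ligand binding, release a fragment that works with Rbpj and Mastermind coactivators at targets such as Hes1. Maml2, a Mastermind, had 7.79, 6.64 and 7.52 CPM in KO, against 19.1, 23.5 and 20.8 CPM in WT (log2 fold change -1.53, SE 0.12, adjusted p 3.7e-05). Hes1 had 3.28, 3.25 and 2.72 CPM in KO, against 10.9, 8.68 and 6.63 CPM in WT. The feedback gene Nrarp fell by 0.82. Tcf7, a nuclear partner of beta-catenin that also acts in lymphoid cells, averaged 14.3 ± 3.9 CPM in KO and 31.7 ± 5.7 CPM in WT (SD, n = 3 each). Rbpj had a log2 fold change of 0.11 and Ctnnb1, which encodes beta-catenin, of -0.08, and neither passed the test (adjusted p 0.22 and 0.46). Lymphoid marker levels were lower beside these genes, as given above, and their part was not tested. In the TGF-beta and BMP list 11 of 33 were lower and 4 higher (6 lower without KO library 2 or 3 or WT library 2); Id2, an inhibitor of E proteins, had 28.5, 24.7 and 23.3 CPM in KO, against 88.8, 82.5 and 51.7 CPM in WT, while Bambi, a decoy receptor, rose by 1.23. Calcium signalling had 15 lower and 3 higher of 39, and Camk1d, a calmodulin-dependent kinase, fell by 0.97 on the log2 scale (SE 0.10). G protein signalling had 18 lower and 7 higher of 46, but 7 to 10 lower when any of the KO libraries or WT library 2 was left out. Both receptors with the largest changes by the naming rule rose: the nucleotide receptor gene P2ry2 (43.3, 43.2 and 42.3 CPM in KO, against 14.4, 12.99 and 16.1 CPM in WT) and the sphingosine receptor gene S1pr2 (log2 fold change 1.39).

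Lists of cell death, recycling and timing had calls in both directions, many at shares near those of all genes. Of 32 BCL2 family and caspase genes 11 were higher (34.4%) and 7 lower (21.9%). The death inducer Bmf had 2.57, 2.46 and 2.25 CPM in KO, against 7.92, 9.27 and 10.7 CPM in WT (log2 fold change -1.93, SE 0.16, adjusted p 4.7e-05), and the death inhibitor Bcl2 averaged 34.0 ± 6.4 CPM in KO and 54.2 ± 6.0 CPM in WT (SD, n = 3 each). Of 38 lysosome genes 14 were higher and 7 lower, with the protease gene Ctsz at 220, 219 and 224 CPM in KO, against 108, 114 and 109 CPM in WT. The palindrome CACGTG, part of the element that TFEB binds at lysosomal genes, was in 11 of the 27 lysosome members with a promoter (40.7%), against 9.79% of tested genes. In other lists its share ran from 0% (CCT and prefoldin among them) to 31.2% (Hippo). How the members that carry it changed in KO was not tested. Autophagy had 10 lower (27.8%) and 4 higher of 36: the initiating kinase gene Ulk1 fell by 0.69, and Atg101 of the same complex rose by 0.94. In the hypoxia list 7 were higher (25.9%) and 8 lower (29.6%) of 27 (4 lower without KO library 2 or 3), with the prolyl hydroxylase P4ha1 higher by 0.76 while Ddit4 fell by 0.73. The clock list had 8 lower and 2 higher of 23 (4 lower without KO library 2 or 3), and Hlf, a clock-related factor that also marks blood stem cells, averaged 108 ± 13 CPM in KO and 236 ± 59 CPM in WT (SD, n = 3 each).

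Over all genes, outside the marker lists, among the largest rises of genes of at least 5 CPM were those of Mgam (2.74), Sgms2 (2.51), Olr1 (2.48), Mmp19 (2.46) and Tfec (2.38) on the log2 scale. Tfec, a relative of TFEB and MITF, had 51.8, 51.6 and 53.1 CPM in KO, against 10.8, 8.4 and 11.1 CPM in WT (SE 0.11, adjusted p 8.8e-06). Clec5a, a myeloid lectin receptor, and Abcd2, a transporter of very long fatty acids into peroxisomes, rose by 2.37 and 2.21. Met, the receptor of hepatocyte growth factor, had 104, 96.6 and 103 CPM in KO, against 37.3, 23.4 and 19.4 CPM in WT. Lipt1, which passes lipoic acid to mitochondrial enzymes, rose by 1.82. Granulocyte marker levels were higher beside these genes, and their part was not tested. The inducible Hspa1b rose by 1.74, had its highest WT value in library 1 (12.3 CPM, against 3.6 and 1.8 CPM in WT libraries 2 and 3), shares reads with its near-identical neighbour Hspa1a, and did not pass without KO library 1 (adjusted p 0.089) or WT library 2 (adjusted p 0.093).

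The largest fall was that of the imprinted noncoding RNA Meg3 (-4.22, adjusted p 0.011), at 0.580, 0.560 and 0.624 CPM in the KO libraries and 4.21, 27.4 and 0.792 CPM in the WT libraries, so WT library 2 carried most of it; without it the log2 fold change was -2.11, and without KO library 1 the adjusted p was 0.058. Others fell evenly. Stc1, the secreted stanniocalcin 1, had 2.9, 1.8 and 2.3 CPM in KO, against 17.9, 13.8 and 17.2 CPM in WT (log2 fold change -2.79, SE 0.19, adjusted p 2.8e-05). The log2 fold change was -3.21 for the sulfate transporter gene Slc26a1, -2.57 for Arpp21, -2.30 for the Ras activator gene Rasgrp3, -2.29 for the semaphorin and VEGF co-receptor gene Nrp1 and -2.26 for Il9r. Ahnak, a very large scaffold protein gene, had 16.5, 13.96 and 13.7 CPM in KO, against 88.1, 74.2 and 38.3 CPM in WT. The Y-linked Uty, Kdm5d and Eif2s3y had -2.73, -2.51 and -2.51, with the sexes of the libraries given above. Their calls were lost under 3, 6 and 6 alternatives. By difference in CPM among called genes outside the marker lists, the foremost was the noncoding Gm42418, whose locus overlaps a ribosomal RNA sequence. It was higher by 0.61 (adjusted p 0.019, and 0.053 and 0.06 without KO library 1 and 3). Next came the nucleolin gene Ncl and Hsp90ab1. Ncl had 5244, 4776 and 4991 CPM in KO, against 3028, 2855 and 3049 CPM in WT. Of the 10 foremost genes by this measure 6 encode chaperones, and these were all higher: Hsp90ab1, Hspa5, Calr, Hspd1, Hspa8 and Hsp90aa1.

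Other libraries of the same sort gave readouts that share no cells with the bulk RNA. Single-cell counts were summed over 4920 and 3884 cells of the libraries labelled KO and 2731 and 4143 cells of those labelled WT, and 8 of 15699 distinct cell barcodes were found in more than 1 of these libraries. Both KO sums were above both WT sums for 25% of all genes in that table and below them for 23.8%, and edgeR called 1 of 13374 genes (0.00748%), Xist (adjusted p 0.024), where DESeq2 called 310. The sums are given here as values and directions. Of the 2963 bulk-higher genes found there, 68.9% had both KO sums above both WT sums and 1.15% below. Of the 2427 bulk-lower genes 52% were below and 3.58% above. In the 8 protein-production lists, 111 of the 144 bulk-higher genes were above and 1 below, and over all members 133 and 22 of 244. Lists with more lower calls in bulk RNA were mixed there over all members, called or not. Integrins and focal adhesion had 7 above and 6 below of 29, remodellers 7 and 7 of 32, and TGF-beta and BMP 7 and 5 of 27. MAP kinase feedback had 8 and 5 of 23, and Wnt and Notch 6 and 9 of 31. Deacetylases had 4 and 12 of 27, calcium signalling 8 and 11 of 37, and G protein signalling 9 and 15 of 43. Of the bulk-lower genes alone, in 7 lists of adhesion, signalling and deacetylases, 54 of 107 were below and 8 above. That grouping was also made after the counts were seen, and 1 of its lists is not reported here. Timm17a had 214 and 195 CPM in the KO sums, against 102 and 98.8 CPM in the WT sums, and Umps had 228 and 240.5 CPM in KO, against 94.4 and 113 CPM in WT. Both single-cell KO libraries held female and both WT libraries male transcripts, and in them genotype cannot be told apart from sex. Mettl3 had 64.3 and 52.2 CPM in the sums of the libraries labelled KO, against 36.3 and 33.3 CPM in those labelled WT (log2 fold change 0.74), which goes against the labels. Where the counted stretch lies relative to the deleted part is not given in the sources used here, so every direction in these sums refers to libraries labelled KO and WT.

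H3K4me3, a histone mark at active gene starts, was read by CUT&RUN in 2 KO and 2 WT libraries over 3 kb windows. Of 15957 marked windows 335 were higher (2.1%) and 329 lower (2.06%), 4.16% in all. Of the 144 bulk-higher genes of the 8 protein-production lists, all with a marked window, none had a higher and 1 had a lower window, and the median log2 fold change of the mark was -0.0046. A fit with the replicate number as a block, which called 2515 higher and 2239 lower windows in all, had 16 higher and 10 lower in this set. Of the 111 bulk-higher genes of the interferon and granulocyte marker lists with a marked window, 38 had a higher and none a lower one (median 0.21), or 67 and 4 with the block. The difference between the sets was not tested. Over all bulk-higher genes 137 of 2974 windows were higher and 15 lower. The start of Hspa5 had -0.26 (adjusted p 0.056) and that of Timm17a 0.01 (adjusted p 0.94). Genes among the largest rises differed: the mark at Clec5a and Atp8b4 was higher by 0.74 and 0.65 (adjusted p 0.0058 and 0.0038). At Met, Lipt1 and Hspa1b it had 0.10, 0.03 and 0.12 (adjusted p 0.59, 0.87 and 0.45). Among genes that fell, the window of Tns1 fell by 2.10 on the log2 scale (adjusted p 0.0002), and that of Hdac5 had -0.03 (adjusted p 0.86). The bulk RNA levels of these groups differ too, with larger fold changes in the marker lists (median 0.96 of the called genes, against 0.43 in the protein-production lists), so sets of equal RNA change were not compared here.

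**Figure D4:**
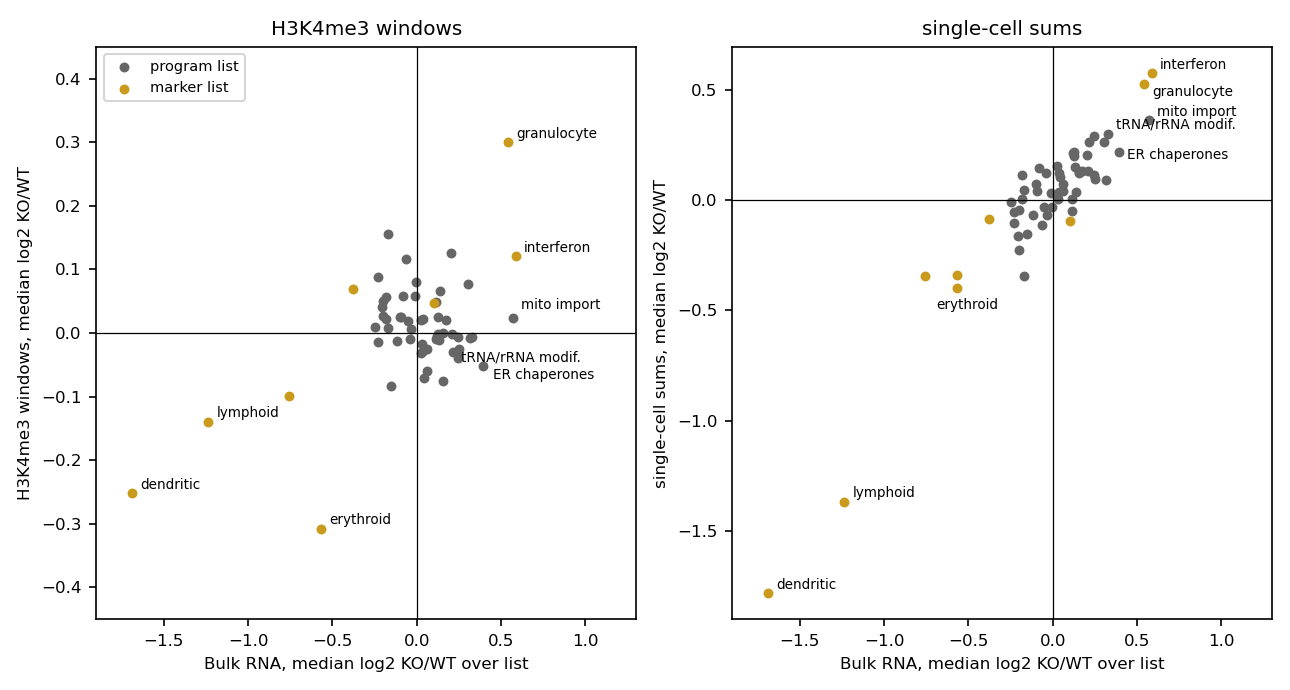
Median log2 fold change (KO over WT) of each list in bulk RNA (horizontal axis) against its median in H3K4me3 windows (left panel) and in single-cell sums (right panel), for lists with at least 10 members in the readout; grey points are program lists and yellow points marker lists. In the left panel the ER chaperone list is at -0.05 and the mitochondrial import list at 0.02 for the mark, beside 0.30 for the granulocyte list, and in the right panel the import list is at 0.36.

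Level and gene size went with the direction of change. Of genes under 1 CPM 3.94% were higher and 22.9% lower, and of those from 1 to 4 CPM 7.98% and 33.1%. From 64 to 256 CPM 33.8% were higher and 15.2% lower. Protein-coding genes that span under 5 kb of the genome were higher in 27.1% and lower in 17.3%, and those over 80 kb were higher in 14.1% and lower in 35.3% (median log2 fold change -0.17). Spans came from RefSeq (GRCm38.p6) for 12284 of 12649 protein-coding genes tested, and span and level were not separated. Noncoding genes of 5 classes (lincRNA, antisense, processed transcript, bidirectional promoter and TEC, models yet to be checked by experiment) had 62 higher and 293 lower of 1094, but protein-coding genes of like level had similar shares. From 1 to 4 CPM 30.0% of the noncoding and 36.9% of the protein-coding genes were lower, and 6.71% and 8.49% were higher. Antisense genes may share reads with their partners, since the strand setting of the counting is not stated. On the X chromosome 14.3% of 495 genes were higher and 26.3% lower, against 21.6% and 22.6% of all genes. The autosome 7 had 17.1% of 1115 genes higher and 26.55% lower, so a larger lower share was not particular to X. The sexes among these libraries were not balanced, and the part of sex was not tested.

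**Figure D5:**
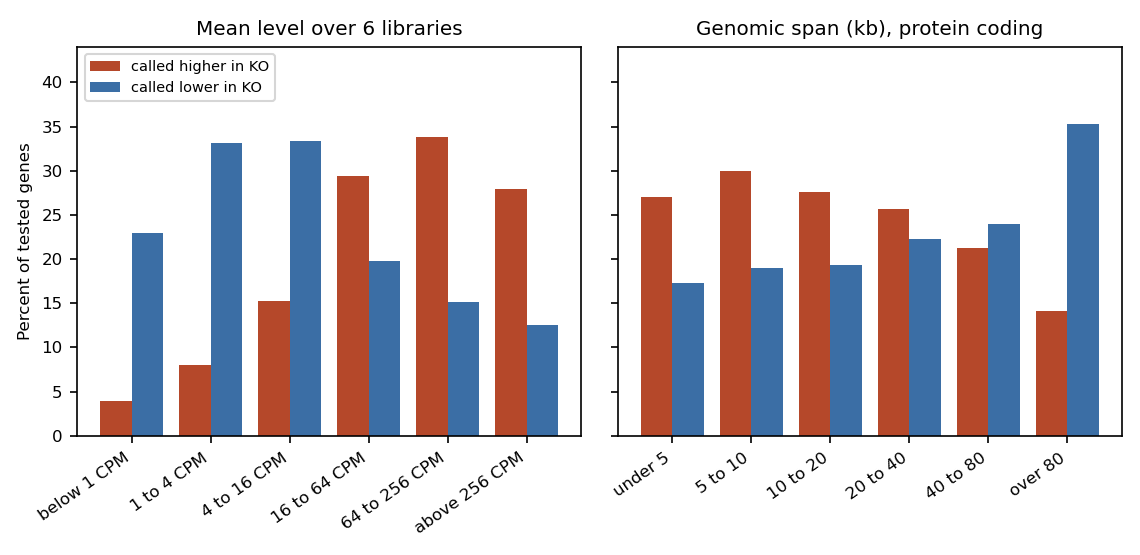
Percent of tested genes called higher (red) and lower (blue) in KO, by mean level over the 6 libraries (left, 14405 genes) and by genomic span in kb of protein-coding genes (right, 12284 genes). Lower calls outnumber higher ones up to 16 CPM and above 40 kb, and the order turns round for better expressed and shorter genes.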

How the data were processed

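The deposited bulk table holds raw read counts per gene made by the authors, with genes named by Ensembl identifier and symbol; single-cell and H3K4me3 files are likewise whole-number counts as deposited by the authors. The submitters' processing notes list edgeR, bedtools, Seurat 3.0, STAR 2.5.3a, Picard 2.9.0 and Bowtie2 2.2.9 without roles; the counting tool and strand setting are not given in the sources used here. Totals of 27732838 to 40641081 counts (KO) and 20088100 to 35924983 counts (WT) set the precision.

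Counts were filtered (filterByExpr), scaled by TMM and tested by edgeR 4.0.16's quasi-likelihood test in R 4.3.3, with Benjamini-Hochberg adjustment over all genes and a threshold of 0.05. The fit had no covariate. Summed marker levels were scaled by library size alone, without TMM. Single-cell counts were summed per library over cells that reached 500 counts with a mitochondrial share below 20%. No doublet caller was run, and how the authors treated doublets is not given in the sources used here. For H3K4me3 the strongest 3 kb window of each gene was used where it averaged at least 16 CPM. Alternatives were DESeq2 1.42.0, RLE scaling, library size alone, no filter, a fold threshold of 1.5 (glmTreat), a replicate block, each library left out and autosomal genes alone, the last chosen after seeing the data. Scripts were tested on simulated data.

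Members and lists were chosen with earlier results of these data known. Named genes were, per list, the 4 with the largest change among those called, at 5 CPM or more and with no overlap between groups. Over all genes outside the marker lists they were the 15 higher and 15 lower by fold, clone names left out, and the 10 with the largest CPM difference. Families needed 12 tested genes, and the 4 highest and 4 lowest by median were taken. Isozymes, sensors, partners and members outside this rule were chosen after their values were seen. Promoters and spans are RefSeq's (GRCm38.p6). The double-stranded RNA data of the series were not used here, and 1 of the lists is not reported here.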

Additional observations from a re-analysis of the deposited data

How the results depend on the processing

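Bulk calls stayed within 1.5 times the reported 6367 under DESeq2 (6326), RLE scaling (6413), library size alone (6606), no filter (6897) and the replicate block (7018). Testing against a fold of 1.5 gave 1332, with 511 higher and 821 lower. Leaving out a library gave 4677 to 6796 calls, 2637 to 3603 higher and 2040 to 3368 lower. Between KO and WT bulk libraries, same-number correlations were 0.23, 0.0957 and 0.0442, and those of unlike numbers ran from -0.234 to 0.169. The same-number correlation was 0.26 in the single-cell sums and 0.604 in the H3K4me3 libraries. The main fits used no pairing, and whether equal numbers mark paired libraries was not tested. Of 240 named genes none changed sign, 102 were called under every alternative, and 16 lost a call other than against the fold of 1.5. Medians near 0 changed sign: that of all genes (-0.0196) was 0.00524, 0.00306 and 0.00752 without KO library 1, 2 and 3, and the medians of 8 of 51 lists (Polycomb, SR and hnRNP, hypoxia and tubulins among them), above 0 with TMM, were below 0 with library size alone. Against a fold of 1.5 the lists kept fewer calls: glycolysis 3, pyrimidine synthesis 1, mitochondrial import 4, ER chaperones 6, translocon 0, nuclear pore 1, tRNA and rRNA modification 5, polymerases I and III 3, deacetylases 2, integrins 4, tubulins and kinesins 4, lysosome 3, Wnt and Notch 3, initiation factors 1, actin 1, TGF-beta 1 and calcium 1. Nonsense-mediated decay, polymerase II, autophagy, retroelements, remodellers, G protein and clock kept 2 each, and the tricarboxylic acid cycle, purine, serine and one-carbon, pentose phosphate, cholesterol, CCT and prefoldin, SR and hnRNP, Polycomb, BCL2 (higher) and hypoxia (lower) 0. Library size alone gave the nuclear pore list 14, nonsense-mediated decay 6, SR and hnRNP 8 lower and cholesterol 10 lower (5 with the block), and no filter gave the deacetylases 9. Without a library the deacetylases ranged from 5 to 12. Single-cell sums gave 310 calls with DESeq2 (212 higher, 98 lower), 11 without a filter (6 and 5), 117 with the replicate block (74 and 43) and 0 without any 1 library. H3K4me3 gave 380 with DESeq2 (178 and 202), 4024 over all windows (1644 and 2380), 4754 with the replicate block (2515 and 2239), and 802 to 1160 without a library (304 to 714 higher, 315 to 544 lower). With that block, 16 of the 144 protein-production windows were higher and 10 lower, and of the 111 interferon and granulocyte windows 67 and 4. The mark's median in the protein-production set was 0.0025 with library size alone and 0.30 over all windows. The cause of these moves was not tested.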
